A study of Drosophila melanogaster with 13 samples.

Results

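TRH-Gal4 pools are small groups of neurons that carry green fluorescent protein through the TRH-Gal4 driver. Its name refers to the hydroxylase that acts on tryptophan in the first step of serotonin synthesis. All 4 such pools of the series, out of 13 samples, were set beside each other, and no other sample was used. All 4 carry the same driver and the same tissue label, brain, and the labels name no age, sex, further alleles or animals of origin. The neurons were drawn by mouth with a glass pipette from brains that had been digested with protease and dissociated. Pools in the series held 15 to 60 neurons, and each was made into cDNA with a kit for very low RNA input and 12 cycles of PCR. Each pool is called here by the number in its label (40, 45, 57 and 60), and the labels do not say what that number stands for. There was 1 group and no reference, so the values below are a description of 4 samples, without a test.

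Serotonergic neurons of the fly brain hydroxylate tryptophan with a pterin cofactor, decarboxylate the product to serotonin, load it into vesicles with the vesicular monoamine transporter and take it back up with the serotonin transporter. They are few, lie in several clusters, and arborise over much of the brain. Many neurons release peptides beside a small transmitter, and neurons of 1 transmitter class can differ in peptides, receptors and transcription factors. A driver of this kind can also label cells outside the class it is named for. A pool of cells adds all of these together, so fewer cells of a type and less RNA per cell cannot be told apart in what follows.

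Reads per pool were 8.72 M in pool 40, 8.75 M in pool 45, 15.6 M in pool 57 and 9.57 M in pool 60. Levels are CPM, the gene's share of the pool's reads in counts per M reads, which are not scaled to transcript length, so a gene is compared with itself across pools. Counts in each pool held at least 1 read for 6510, 6989, 8604 and 7592 genes in pools 40, 45, 57 and 60. Where no read was found, a level of up to 3 reads remains possible, or 0.344, 0.343, 0.193 and 0.313 CPM in that order. At 100 CPM, counting error alone gave a coefficient of variation of 2.53 to 3.39%. Floors and counting errors leave out PCR, since copies of 1 molecule were counted as separate reads.

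The genes were sorted by 2 rules. A gene was called even when it stood at 100 CPM or more in all 4 pools and its highest pool was at most 2 times its lowest. It was called uneven when it stood at 100 CPM or more in at least 1 pool and under 10 CPM in at least 1 other. Every other gene that reached 100 CPM in a pool was called intermediate. Of 17737 genes in the table, 9993 had a read in a pool and 2691 reached 100 CPM in at least 1. Of these 2691, 871 were even (32.4%), 168 were uneven (6.24%) and 1652 were intermediate, and 1244 stood at 100 CPM or more in all 4 pools. The even genes held 53.8 to 56.4% of the reads of a pool and the uneven genes 2.02 to 5.28%. These counts follow from the values that chose the genes and support nothing by themselves.

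**Figure D1:**
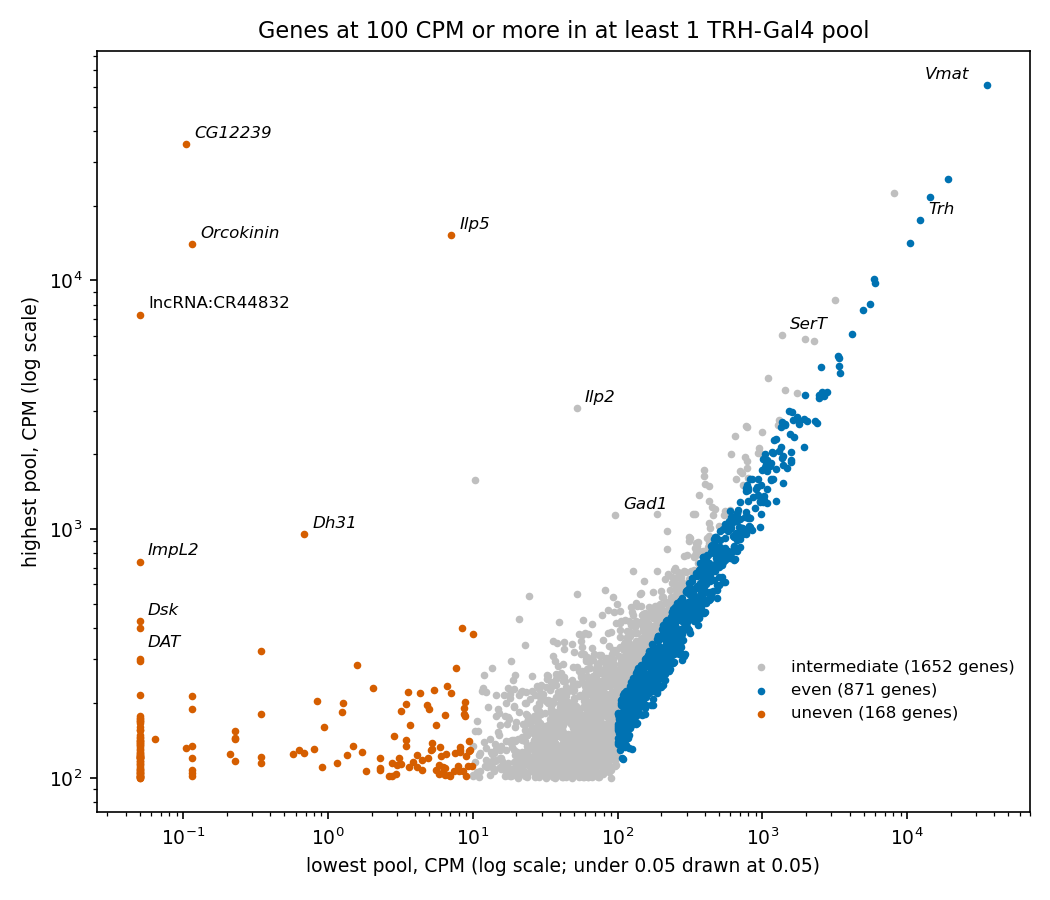
Each point is 1 of the 2691 genes that reached 100 CPM in a pool, with its lowest pool on the x axis and its highest pool on the y axis (CPM, both log scales). The 871 even genes (blue) lie along the right edge with Vmat and Trh at the top, and the 168 uneven genes (orange) lie at the left, most of them near 100 CPM at their highest and a few, such as CG12239, Ilp5 and Orcokinin, far above.

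The defining markers of the label, Trh, SerT and Vmat, were found at 1364 CPM or more in every pool. Trh, the tryptophan hydroxylase gene (FBgn0035187, on 3L from 1190384 to 1193173 of BDGP6, minus strand), had 12310 CPM in pool 40, 17497 in pool 45, 12896 in pool 57 and 12768 in pool 60. Its mean was 13868 ± 2432 CPM (SD, n = 4), and the highest pool was 1.42 times the lowest. Pools 40, 57 and 60 lay close together and pool 45 stood above them. Ddc, the decarboxylase of the next step, had 5567 CPM in pool 40, 8022 in pool 45, 6786 in pool 57 and 6007 in pool 60, a ratio of 1.44. Vmat, which loads monoamines into vesicles, had 43212 CPM in pool 40, 60884 in pool 45, 56451 in pool 57 and 35815 in pool 60, a ratio of 1.70. It took 3.58 to 6.09% of all reads of a pool. These 3 genes were even.

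SerT, the serotonin reuptake transporter, was the exception among the defining markers. It had 4133 CPM in pool 40, 6017 in pool 45, 3914 in pool 57 and 1364 in pool 60, so that its highest pool was 4.41 times its lowest and it was intermediate. Set against Trh of the same pool, SerT stood at 0.336 in pool 40, 0.344 in pool 45, 0.304 in pool 57 and 0.107 in pool 60. The first 3 pools had nearly the same ratio and pool 60 had a lower one, while Trh itself in pool 60 was like that in pools 40 and 57. Vmat over Trh was 3.51, 3.48, 4.38 and 2.81 in pools 40, 45, 57 and 60. All of Trh, Ddc, Vmat and SerT were highest in pool 45, as were 505 of the 2691 genes that reached 100 CPM in a pool.

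The cofactor of tryptophan hydroxylase, tetrahydrobiopterin, is made and recycled by a set of 5 genes in the list used here, of which 3 reached 100 CPM. Pu, the GTP cyclohydrolase that opens the pathway, had 415.7 CPM in pool 40, 505.4 in pool 45, 350.8 in pool 57 and 249.5 in pool 60, a ratio of 2.03 that fell just past the limit for even genes. Dhpr, which regenerates the cofactor, stood between 181.3 CPM in pool 60 and 235.5 CPM in pool 57 and was even. Pcd, a dehydratase of the same recycling step, stood between 118.6 CPM in pool 40 and 175.9 CPM in pool 57 and was even. Sptr, the sepiapterin reductase gene, and pr, of the step before it, stayed below 100 CPM in every pool, with means of 65.9 ± 28.2 and 55.3 ± 10.7 CPM (SD, n = 4). Pool 60 was lowest for Pu, Dhpr, Sptr and pr, and for 566 of the 2691 genes that reached 100 CPM in a pool. Of 6 amino acid transport genes in another list, 3 reached 100 CPM. The carrier subunits JhI-21 (1030 to 1315 CPM) and CD98hc (976.3 to 1310 CPM) were even, with ratios of 1.28 and 1.34. The gene w was intermediate, from 56.1 CPM in pool 45 to 354.1 CPM in pool 60, a ratio of 6.31.

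Genes of vesicles, synapses and neuronal identity were even in most cases. Over these lists 36 genes reached 100 CPM, of which 31 (86.1%) were even, 5 intermediate and none uneven. The median mean level of the 36 was 878.3 CPM, and among all genes with a mean of 800 to 1600 CPM the share within the 2-fold limit was 78.5%, so these genes were about as even as others of their level. The general neuronal genes were even in 10 of 10 cases. Among them, futsch, a microtubule-associated protein of axons, had 1515 CPM in pool 40, 1538 in pool 45, 1395 in pool 57 and 1418 in pool 60, a ratio of 1.10. elav, the pan-neuronal RNA-binding protein, ranged more widely, from 191.6 CPM in pool 60 to 370.9 CPM in pool 40. The gene para, the voltage-gated sodium channel, stood between 659.8 CPM in pool 57 and 963.3 CPM in pool 40.

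Of 19 synaptic vesicle and active zone genes that reached 100 CPM, 16 were even. Syt1, the calcium sensor of fast release, had 2414 CPM in pool 40, 2735 in pool 45, 2482 in pool 57 and 2298 in pool 60. Rbp, an active zone scaffold, differed by a ratio of 1.09, from 486.7 CPM in pool 60 to 531.1 CPM in pool 45, which is among the smallest of well-expressed genes. nSyb, the vesicle SNARE, had a ratio of 1.37, and cpx, the complexin that clamps release, had one of 1.53 at a mean of 6541 ± 1194 CPM (SD, n = 4). The 3 that were not even were Rab3 (ratio 2.42), comt (2.33) and Liprin-alpha (2.23), and Rab3 and comt were highest in pool 57.

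Of 11 dense-core vesicle and peptide-processing genes that reached 100 CPM, 9 were even (81.8%), at a median mean level of 500.4 CPM. Among all genes with a mean of 400 to 800 CPM, 73.8% were within the 2-fold limit, so these genes were about as even as others of their level. IA-2, a membrane protein of dense-core vesicles, had 18942 CPM in pool 40, 17144 in pool 45, 14330 in pool 57 and 21678 in pool 60, so that the order of the pools was not that of Vmat. Pal2, of peptide amidation, differed by a ratio of 1.29, svr, a carboxypeptidase, by 1.31 and 7B2, the chaperone of a prohormone convertase, by 1.33. That convertase, amon, was even at the edge, with a ratio of 1.90 between 551.9 CPM in pool 60 and 1046 CPM in pool 57. Pal1 and Sytalpha were the 2 intermediate genes. The vacuolar proton pump, which acidifies both kinds of vesicle, had 12 even genes of 15 (80%) at a median mean level of 727.4 CPM, against the same 73.8% of all genes. Its subunit gene Vha16-1 had a ratio of 1.24. Another subunit gene, Vha100-2, was uneven, with 129.5 CPM in pool 40, 33.7 in pool 57, 72.3 in pool 60 and 0 reads in pool 45.

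**Figure D2:**
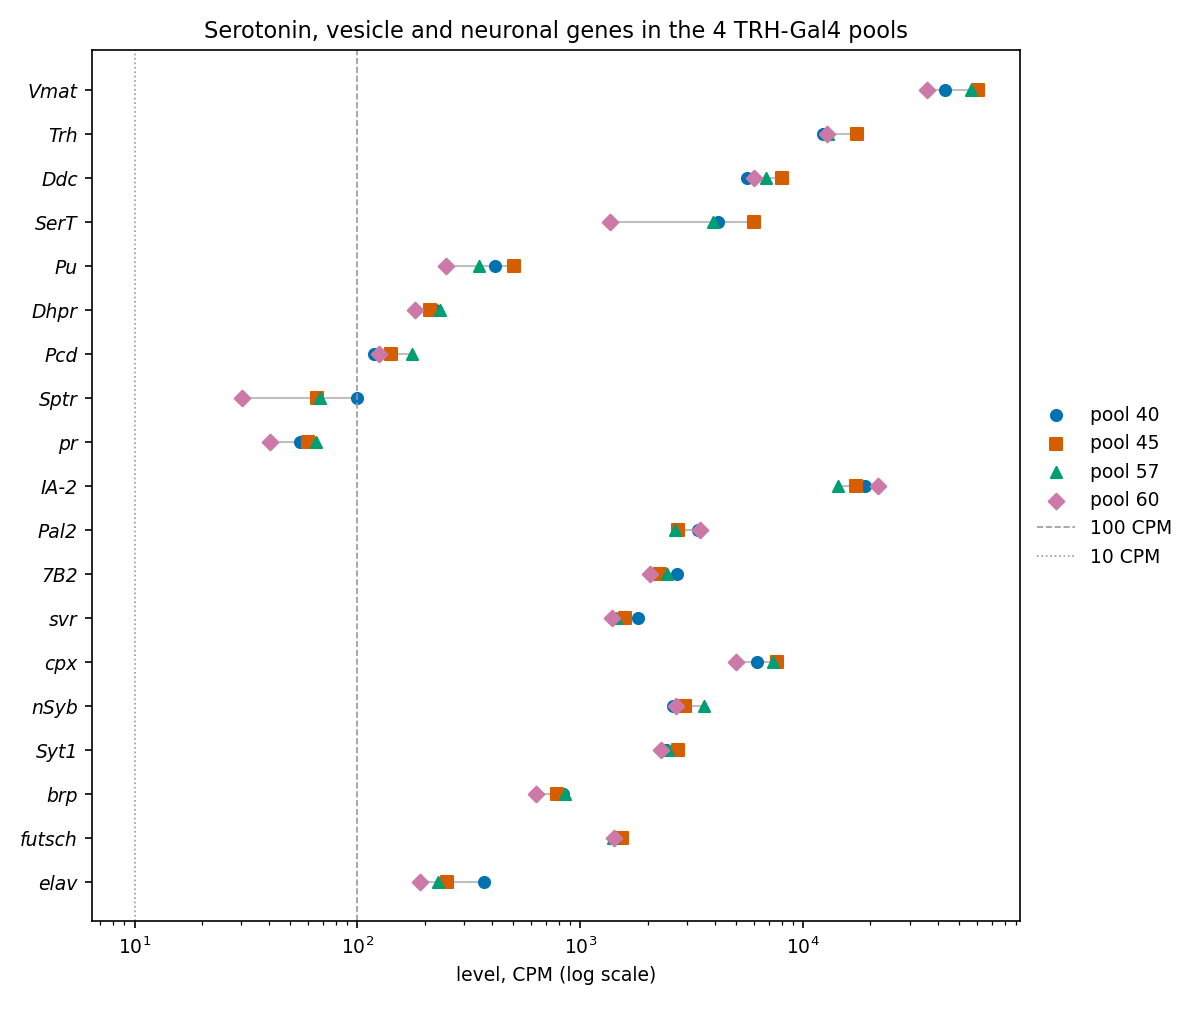
Levels (CPM, log scale) of serotonin pathway, cofactor, vesicle and neuronal genes in pools 40 (circles), 45 (squares), 57 (triangles) and 60 (diamonds), with the grey line from the lowest to the highest pool and vertical lines at 10 and 100 CPM. Most symbols of a gene lie on top of each other, and SerT is set apart by pool 60 at 1364 CPM.

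The most abundant even genes in CPM, an order that favours long transcripts, were Vmat, lncRNA:noe, IA-2, Trh, the sodium pump gene Atpalpha, CG2269, lncRNA:Hsromega, Ddc, cpx and nrv3. The tightest, among even genes with a mean of 500 CPM or more, were led by His4r, a histone H4 gene, with 1291 CPM in pool 40, 1234 in pool 45, 1294 in pool 57 and 1269 in pool 60. mts, the catalytic subunit of protein phosphatase 2A, had 1012, 969.7, 994.6 and 1019 CPM in pools 40, 45, 57 and 60. Both had a ratio of 1.05. Rbp, futsch, miple1, vig, 14-3-3epsilon, Rm62, Cyp1 and CG11155 followed, with ratios of 1.09 to 1.18. CG11155 overlaps a gene on the other strand, and since the library kits do not mark strand, its reads are uncertain.

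Spread depended on level, which bears on any list. Among genes with a mean of 25 to 50 CPM, 15.0% stayed within the 2-fold limit, against 41.0% at 100 to 200 CPM and 73.8% at 400 to 800 CPM. The share with a pool under 10 CPM went the other way, at 39.2% of genes with a mean of 25 to 50 CPM, 1.56% at 100 to 200 CPM and 0.368% at 200 to 400 CPM. Between 400 and 1600 CPM it was 0 of 229 and 0 of 107 genes in the 2 bins. At 1600 CPM or more it was 4 of 63 genes, namely CG12239, Ilp5, Orcokinin and lncRNA:CR44832. In these 4 1 pool stood at 7293 CPM or more and another at 7.08 CPM or less.

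**Figure D3:**
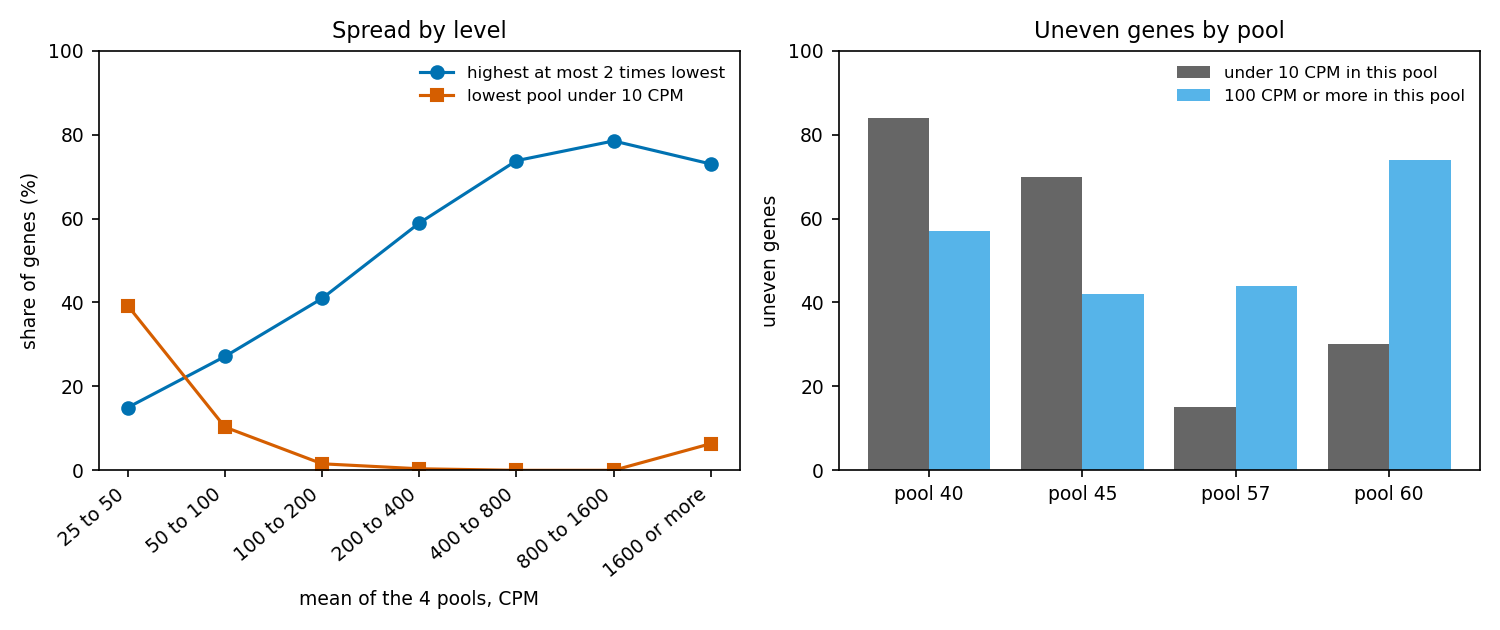
The left panel gives, by mean level of the 4 pools (CPM), the share of genes whose highest pool was at most 2 times the lowest (blue) and the share with a pool under 10 CPM (orange), which drops to 0% between 400 and 1600 CPM and stands at 6.35% above. The right panel counts, for each pool, the uneven genes under 10 CPM there (grey; 84, 70, 15 and 30) and at 100 CPM or more there (light blue; 57, 42, 44 and 74).

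Neuropeptide genes differed widely between pools. Of 48 in the lists, 14 reached 100 CPM in a pool, 7 of these were uneven (50%, against 6.24% of all genes) and only sNPF was even. The other 34 did not reach 100 CPM in any pool, and 18 genes of the list without the insulin-producing cell peptides had no read in any. Without pool 40 the number of uneven neuropeptide genes was 4, and without pools 45, 57 and 60 it was 5, 5 and 7. The median mean level of the 14 was 221.8 CPM, but the means of the 7 uneven ones ran from 41.5 CPM (Ilp3) to 5236 CPM (Orcokinin). Of all genes, 3.44% were uneven at a mean of 25 to 50 CPM, 8.71% at 50 to 100 CPM and 1.56% at 100 to 200 CPM. At 200 to 400 CPM the share was 0.368%, and at 1600 CPM or more it was 6.35%.

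Peptides of the insulin-producing cells of the brain made up the first of these patterns. Ilp5, an insulin-like peptide, had 15214 CPM in pool 40, 7.08 in pool 45, 2574 in pool 57 and 70.7 in pool 60. Ilp2, another insulin-like peptide of the same cells, had 3076 CPM in pool 40, 52.2 in pool 45, 1273 in pool 57 and 132.2 in pool 60. Pools 40 and 57 were high in both, and pools 45 and 60 were low. Ilp3, the third of the group, had 155.2 CPM in pool 40 and 10.9 in pool 57, with 0 reads in pools 45 and 60. Dsk, the drosulfakinin precursor that these cells also make, had 428.1 CPM in pool 40, 84.3 in pool 57 and 5.22 in pool 60, with 0 reads in pool 45. Ilp1, another insulin-like peptide gene, had at most 0.386 CPM.

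Each of Ilp2, Ilp5 and Dsk stood in the order pool 40, pool 57, pool 60, pool 45, an order that 145 of the 2691 genes (5.39%) showed. The ratio of Ilp5 to Ilp2 was not the same in all pools, at 4.95 in pool 40, 0.136 in pool 45, 2.02 in pool 57 and 0.535 in pool 60. The 3 insulin genes lie close together on chromosome 3L in BDGP6: Ilp2 from 9799698 to 9800440 (plus strand), Ilp3 from 9801298 to 9802120 (minus strand) and Ilp5 from 9823349 to 9823897 (minus strand). CG32052 overlaps Ilp2 and Ilp3 and had a mean of 57.6 CPM, so that reads of these genes can be shared. ImpL2, a secreted protein that binds insulin-like peptides, had a pattern of its own, with 740.3 CPM in pool 57, 143.3 in pool 60 and 0 reads in pools 40 and 45.

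Orcokinin, a peptide precursor, had its lowest pool where Ilp5 had its highest. It had 0.115 CPM in pool 40, which is below the level of 3 reads, against 1102 CPM in pool 45, 5854 in pool 57 and 13988 in pool 60. Dh31, a diuretic hormone of the calcitonin type, had 957.8 CPM in pool 45, with 0.688 in pool 40, 8.74 in pool 57 and 4.28 in pool 60, so that a single pool held nearly all of it. Dh44, the diuretic hormone of the corticotropin-releasing type, had 214.2 CPM in pool 57, with 28.3 in pool 40, 0.114 in pool 45 and 7.94 in pool 60. ITP, the ion transport peptide, was also highest in pool 57, at 203.7 CPM, with 3.44 in pool 40, 23.1 in pool 45 and 0.836 in pool 60. Thus the 7 uneven peptide genes had their highest pool in 40 for Ilp5, Ilp3 and Dsk, in 45 for Dh31, in 57 for Dh44 and ITP, and in 60 for Orcokinin.

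The intermediate peptide genes were detected in all pools at unequal levels. Mip, the myoinhibitory peptide precursor, had 20.9 CPM in pool 40, 434.0 in pool 45, 97.0 in pool 57 and 251.3 in pool 60. The peptide gene spab had 18.5 CPM in pool 40, 45.5 in pool 45, 122.9 in pool 57 and 293.9 in pool 60. Proc, which encodes proctolin, was abundant throughout, with 2601 CPM in pool 40, 1694 in pool 45, 772.2 in pool 57 and 1543 in pool 60. Nplp1 had 1129 CPM in pool 40, 1102 in pool 45, 2360 in pool 57 and 650.5 in pool 60. In contrast, sNPF, the short neuropeptide F precursor, had 354.3 CPM in pool 40, 273.8 in pool 45, 294.3 in pool 57 and 369.6 in pool 60, a ratio of 1.35.

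**Figure D4:**
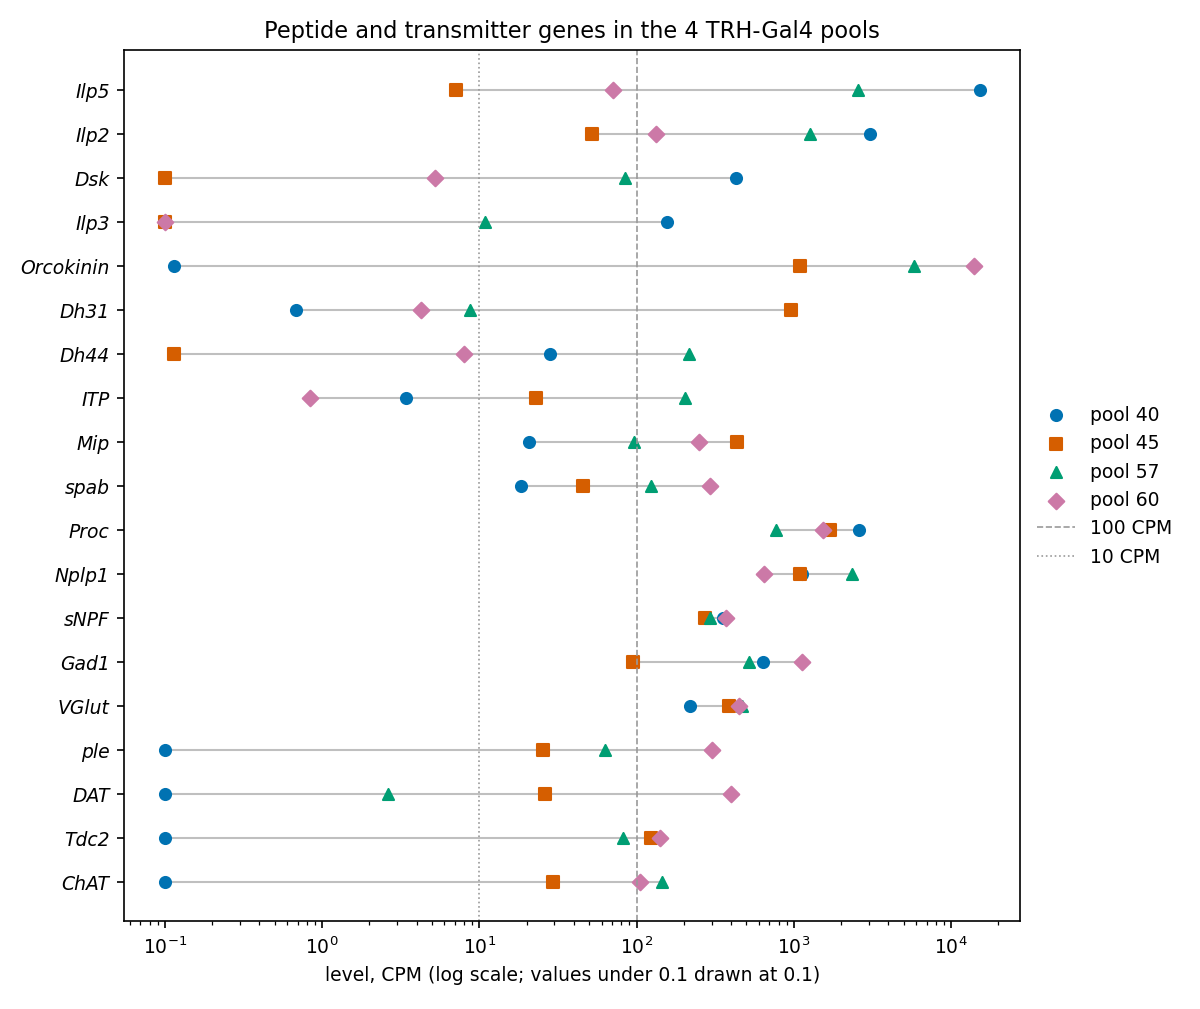
Levels (CPM, log scale, values under 0.1 drawn at 0.1) of neuropeptide and small-transmitter genes in pools 40 (circles), 45 (squares), 57 (triangles) and 60 (diamonds), with vertical lines at 10 and 100 CPM. Ilp5, Ilp2, Dsk and Ilp3 run from pool 45 or 60 at the left to pool 40 at the right, Orcokinin has pool 40 at the far left, and sNPF has all pools between 273.8 and 369.6 CPM.

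Genes that make, carry or break down other small transmitters were the second group with many uneven members. Of 8 that reached 100 CPM, 4 were uneven (50%, against 6.24% of all genes), 3 intermediate and 1, Ace, even. Their median mean level was 216.9 CPM, but the 4 uneven ones had lower means, of 69.7 (ChAT), 86.6 (Tdc2), 97.3 (ple) and 107.6 CPM (DAT). Of all genes, 8.71% were uneven at a mean of 50 to 100 CPM and 1.56% at 100 to 200 CPM. The count of 4 rests on pool 40: it was 1 without that pool, which left DAT, and 2 without pool 60, against 4 without pool 45 or 57. The dopamine genes were highest in pool 60. ple, the tyrosine hydroxylase gene, had 0 reads in pool 40, 25.5 CPM in pool 45, 63.0 in pool 57 and 300.7 in pool 60. DAT, the dopamine reuptake transporter, had 0 reads in pool 40, 26.2 CPM in pool 45, 2.63 in pool 57 and 401.4 in pool 60. Pool 57, with ple above pool 45 and DAT below it, broke the shared order of these 2 genes. Pool 60 was also the pool with the lowest SerT.

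Tdc2, the tyrosine decarboxylase of neurons that make tyramine and octopamine, had 0 reads in pool 40, 123.3 CPM in pool 45, 81.8 in pool 57 and 141.4 in pool 60. Tbh, which turns tyramine into octopamine, was found in all pools, from 29.5 CPM in pool 60 to 96.8 CPM in pool 57. ChAT, choline acetyltransferase, had 0 reads in pool 40, 29.2 CPM in pool 45, 144.5 in pool 57 and 105.1 in pool 60. VAChT lies within ChAT on the same strand, where reads can be shared, and had 0.229, 31.6, 24.7 and 81.0 CPM in pools 40, 45, 57 and 60. Pool 40 had 0 reads of ple, DAT, Tdc2 and ChAT, each of which allows up to 0.344 CPM.

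Gad1, which makes GABA, had 639.0 CPM in pool 40, 95.6 in pool 45, 516.3 in pool 57 and 1136 in pool 60. It overlaps CG14989 on the other strand, which had 973.7, 188.6, 643.0 and 1155 CPM in the same pools, and the shared stretch cannot be assigned. VGAT, the vesicular GABA transporter, stayed between 33.0 CPM in pool 40 and 83.2 CPM in pool 57. VGlut, the vesicular glutamate transporter, had 219.0 CPM in pool 40, 386.3 in pool 45, 465.9 in pool 57 and 450.3 in pool 60. Eaat2, a transporter of acidic amino acids, was intermediate with a ratio of 2.18, and even with TMM library sizes (1.95), another scaling of the totals. No pool had a read of Hdc, the histamine-forming decarboxylase.

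The widest difference in CPM among the uneven genes was in CG12239, to which no role is given here. It had 35375 CPM in pool 45, which is 3.54% of the reads of that pool, against 0.115 in pool 40, 10.2 in pool 57 and 0.104 in pool 60. The noncoding gene lncRNA:CR44832 had 7293 CPM in pool 45 and 0 reads in the other pools. These genes are neighbours on the X chromosome in BDGP6. lncRNA:CR44832 lies from 5790952 to 5791536 on the minus strand and CG12239 from 5792140 to 5794543 on the plus strand, 603 bp apart, with their starts on the facing sides and transcription leading away. CG15537, on 3R, had a milder form of the pattern, with 1575 CPM in pool 45, 181.5 in pool 57, 48.7 in pool 60 and 10.4 in pool 40.

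Receptor genes for transmitters and peptides were mixed. Of 45 that reached 100 CPM, 15 were even and 2 uneven, shares of 33.3% and 4.44% that are close to those of all genes. The median mean level of the 45 was 157.1 CPM. At 100 to 200 CPM, 41.0% of all genes were within the 2-fold limit and 1.56% were uneven. Acetylcholine receptor genes were even in 7 of 10 cases at a median mean level of 371.2 CPM, where 58.9% of all genes were within the 2-fold limit. They were led by the nicotinic subunit nAChRbeta1 with 655.5, 638.4, 659.3 and 753.1 CPM in pools 40, 45, 57 and 60. Rdl, a GABA-gated chloride channel, was even as well, with a ratio of 1.38. No gene with a mean under 100 CPM can meet the even rule. Neuropeptide receptors had a median mean level of 88.3 CPM, so that being even in none of 12 cases was partly fixed by level. Their uneven members were CCKLR-17D3, a receptor for drosulfakinin, with 0 reads in pool 40, 105.8 CPM in pool 45, 38.1 in pool 57 and 95.6 in pool 60, and NPFR, the neuropeptide F receptor, with 18.2, 8.91, 48.2 and 101.9 CPM. With TMM library sizes NPFR was under 100 CPM in every pool and so no longer uneven. CCKLR-17D3 had no reads in pool 40, where its ligand gene Dsk was highest, and was highest in pool 45, where Dsk had none. Of the 168 uneven genes, 77 were lowest in pool 40 and 66 in pool 45. A relation between the 2 genes was not tested.

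Serotonin receptor genes were present without being even. 5-HT1A had 136.7 CPM in pool 40, 248.4 in pool 45, 230.9 in pool 57 and 84.9 in pool 60. 5-HT7 had 169.1 CPM in pool 40, 28.1 in pool 45, 86.5 in pool 57 and 101.1 in pool 60. 5-HT1B stood between 67.3 CPM in pool 57 and 124.4 CPM in pool 60. 5-HT2A was found mostly in pool 45, at 39.4 CPM, with 0 reads in pool 40 and at most 2.1 CPM in the others. 5-HT2B stayed between 13.9 and 32.3 CPM. Among other amine receptors, DopEcR, Octbeta1R and Octalpha2R were even, Octalpha2R not so with TMM library sizes, and Dop1R1 varied most of those that reached 100 CPM, from 52.7 CPM in pool 57 to 279.9 CPM in pool 45.

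Among 19 channel genes that reached 100 CPM, 11 were even (57.9%) at a median mean level of 366.3 CPM, next to 58.9% of all genes within the 2-fold limit at 200 to 400 CPM. They included Ih (ratio 1.38) and slo (1.22), a cation channel opened by hyperpolarisation and a potassium channel opened by calcium. The uneven one was Elk, a potassium channel of the ether-a-go-go family, with 0.344 CPM in pool 40, 324.1 in pool 45, 140.0 in pool 57 and 168.4 in pool 60. Wiring and adhesion genes had 19 even and 2 uneven members of 63 (30.2% and 3.17%), at a median mean level of 182.6 CPM. At 100 to 200 CPM, 41.0% of all genes were within the 2-fold limit and 1.56% were uneven. The uneven ones were robo2, a receptor for the repellent Slit, with 128.8 CPM in pool 40, 9.48 in pool 45, 36.0 in pool 57 and 32.4 in pool 60, and dpr3, an immunoglobulin-domain protein of synaptic partner choice, with 9.28, 27.3, 111.9 and 65.7 CPM. With TMM library sizes robo2 was intermediate. DIP-alpha, which belongs to the binding partners of dpr proteins, narrowly missed the rule, with 106.7 CPM in pool 40, 192.3 in pool 45, 12.7 in pool 57 and 60.1 in pool 60.

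Few transcription factor genes reached 100 CPM. Of 95 in the lists 16 did, at a median mean level of 187.1 CPM. Of these 4 were even (25%, against 32.4% of all genes) and none was uneven (against 6.24%). Among all genes with a mean of 100 to 200 CPM, 41.0% were within the 2-fold limit and 1.56% were uneven. hth, a homeodomain factor, had 854.1 CPM in pool 40, 477.1 in pool 45, 486.0 in pool 57 and 445.3 in pool 60, and zfh1 had 261.6, 259.8, 269.5 and 486.1 CPM. zfh2, a zinc finger and homeodomain factor, had 85.5 CPM in pool 40, 194.0 in pool 45, 200.9 in pool 57 and 381.5 in pool 60. Lim1 ran the other way, with 175.7 CPM in pool 40, 85.1 in pool 45, 70.3 in pool 57 and 17.4 in pool 60. mirr, of the Iroquois family, was highest in pool 40 at 352.8 CPM and lowest in pool 45 at 43.0 CPM.

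Factors known for position along the body axis were low and unequal. Scr had 4.47 CPM in pool 40, 30.7 in pool 45, 0.321 in pool 57 and 0 reads in pool 60. Dfd, another Hox gene, had 28 CPM in pool 60 and at most 2.63 CPM in the others. pb had 10.9 CPM in pool 40, 0 reads in pool 45, 13 CPM in pool 57 and 50.9 in pool 60. en, which marks serotonergic lineages of the embryonic nerve cord, had 51.8 CPM in pool 40, 30.2 in pool 45, 8.35 in pool 57 and 6.69 in pool 60. eg, another gene of those lineages, had 0 reads in all pools. These 5 genes were under 100 CPM everywhere and outside the classes. oc, a head gap gene, was the member of the Hox and head patterning list that reached 100 CPM, with 36.7 CPM in pool 40, 14.3 in pool 45, 24.2 in pool 57 and 116.9 in pool 60.

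**Figure D5:**
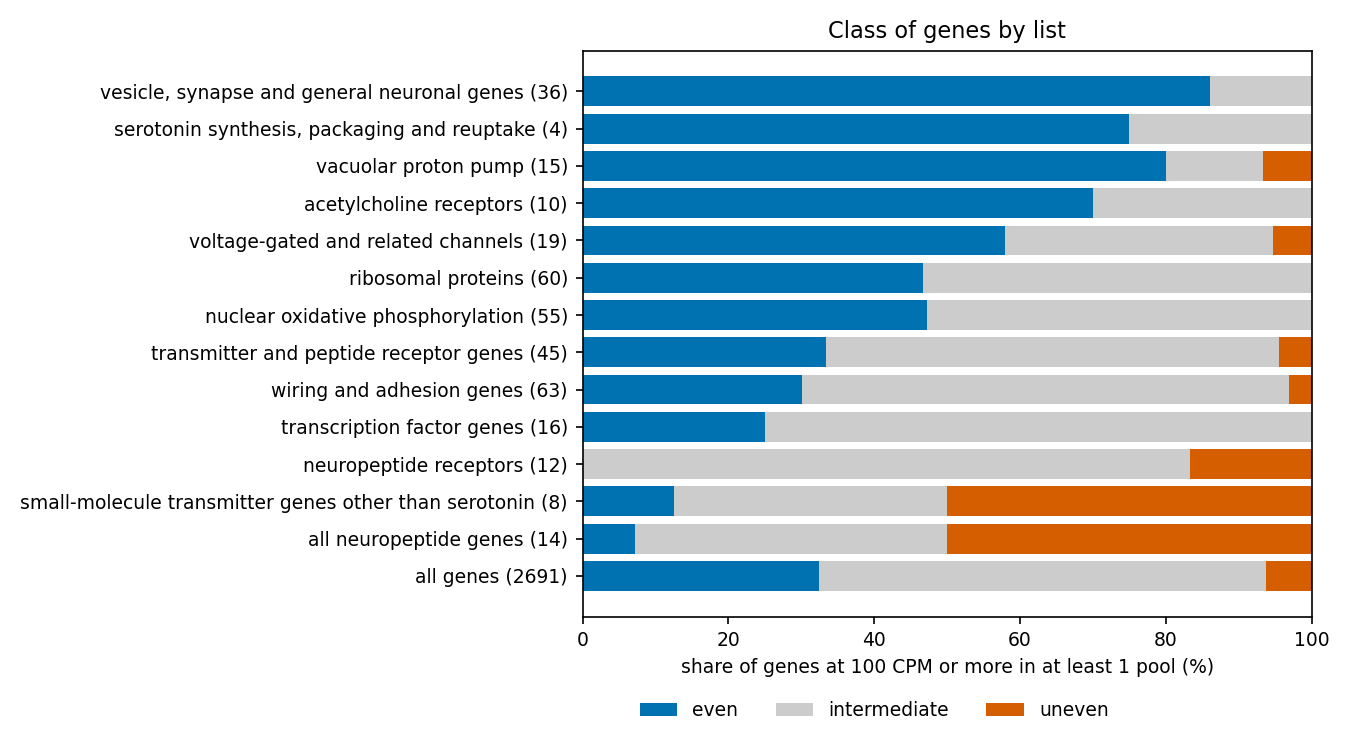
Share of even (blue), intermediate (grey) and uneven (orange) genes in each list (%), with the number of genes that reached 100 CPM in a pool in parentheses and all 2691 genes in the bottom bar. Vesicle, synapse and general neuronal genes have the longest blue bar at 86.1%, while neuropeptide genes and small-molecule transmitter genes other than serotonin each have 50% orange.

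Most uneven genes were not peptides or transmitters and were not abundant. Of the 168, 143 stayed under 200 CPM even in their highest pool, 147 had a mean below 100 CPM, and the median of the highest pool was 127.2 CPM. In 127 a single pool reached 100 CPM, in 33 it was 2 pools and in 8 it was 3. In 143 a single pool was under 10 CPM, and 61 had 0 reads in a pool. The 8 genes that reached 400 CPM were CG12239, Ilp5, Orcokinin, lncRNA:CR44832, Dh31, ImpL2, Dsk and DAT, of which 4 encode peptides.

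The pools did not contribute alike. Of the 168 uneven genes, 84 were under 10 CPM in pool 40 and 70 in pool 45, against 15 in pool 57, the most deeply read, and 30 in pool 60. The share with 0 reads followed suit, with 32, 28, 3 and 7 genes in pools 40, 45, 57 and 60. Genes from outside the lists were among them. Hip14, a palmitoyltransferase, had 117.5, 0.343, 121.1 and 107.2 CPM in pools 40, 45, 57 and 60, and fry, a large scaffold protein, had 399.9, 8.45, 151.3 and 198.1 CPM. fry overlaps CNMaR on the other strand, which had a mean of 157.1 CPM, so its reads are uncertain. Adar, the RNA-editing enzyme, had 8.80 CPM in pool 45 against 140.7, 170.8 and 177.7 CPM in pools 40, 57 and 60. In each of these 3 genes pool 45 alone was under 10 CPM. The part of amplification from few cells in these values was not tested.

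Across all 9993 genes with a read, the 6 pairs of pools had Pearson correlations of log2(CPM + 1) between 0.782 for pools 40 and 45 and 0.856 for pools 57 and 60. These are correlations across genes of libraries that differ in depth, and genes are not replicates. The numbers of genes at 100 CPM or more in one pool of a pair and under 10 CPM in the other had the same extremes, with 76 for pools 40 and 45 and 9 for pools 57 and 60. The other pairs had 64 (40 and 60), 45 (45 and 60), 37 (40 and 57) and 18 (45 and 57).

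Some large groups moved together by pool. Nuclear genes of oxidative phosphorylation were highest in pool 57 in 48 of 55 cases (87.3%), where 19.3% of all 2691 genes had their highest pool, and the mitochondrially encoded genes were so in 10 of 10. Mitochondrial transcripts were 3.35% of the reads in pool 57 and 1.53 to 1.76% in the others. Ribosomal protein genes were highest in pool 40 in 41 of 60 cases (68.3%, against 34.8% of all genes). Heat shock genes were highest in pool 60 in 9 of 11 cases (81.8%, against 27.1%). Hsp26, a small chaperone, had 24.4 CPM in pool 40, 177.2 in pool 45, 289.7 in pool 57 and 536.5 in pool 60, and Hsp68 had 52.3, 123.3, 282.3 and 550.5 CPM. In no case were genes of these lists uneven except Hsf, the heat shock factor itself, with 8.71 CPM in pool 40 and 190.2 CPM in pool 60.

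The summed markers of glia, muscle and fat body were highest in pool 60. The 13 glial markers summed to 319.2 CPM in pool 40, 262.9 in pool 45, 361.2 in pool 57 and 830.5 in pool 60. Eaat1, a glial glutamate transporter, had 13.4 CPM in pool 40, 12.0 in pool 45, 68.2 in pool 57 and 258.1 in pool 60, and nrv2 had 7.11, 18.3, 81.3 and 218.7 CPM. Gs2, a glutamine synthetase gene used as a glial marker, was uneven in another order, with 62.9 CPM in pool 40, 116.5 in pool 45, 0 reads in pool 57 and 60.7 CPM in pool 60. repo, the defining glial factor, had 0 reads in pools 40, 45 and 57 and 3.24 CPM in pool 60. The 10 muscle markers summed to 31.1 CPM in pool 60 and at most 3.15 CPM elsewhere, and the 9 fat body and yolk markers to 50.7 CPM in pool 60 and at most 5.40 CPM elsewhere. The 14 photoreceptor markers summed to 261.7 CPM in pool 45 and up to 447.2 CPM in pool 60, nearly all of it norpA, a phospholipase also found in other neurons, while Arr1, Arr2 and trp had no read in any pool. The 9 hemocyte and basement membrane markers summed to 300.5, 324.3, 499.0 and 567.5 CPM in pools 40, 45, 57 and 60, most of it Pxn and crq, with no read of He or NimC1. The 5 Kenyon cell markers summed to 769.5, 1158, 492.6 and 584.8 CPM, most of it mub. The dopamine genes, Orcokinin and the heat shock genes were highest in that same pool 60, and the part of other cells in those values was not tested.

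Values near the limits show how the classes were cut. Stt3B and CG3860 were just even, within the limit of 2, while Sms and chrb were just outside, both with a ratio of 2.01. SiaT and Ire1 had lowest pools at 9.96 and 9.97 CPM and were uneven, while Cdc7 and Tsp42El had 10.03 and 10.05 CPM and were not. CG7369 and bib reached 100.1 and 100.3 CPM, while Cdk9 and CG4049 reached 99.4 and 99.5 CPM.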

How the data were processed

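The counts deposited by the authors are whole numbers of reads for each gene, and the 4 TRH-Gal4 columns were used. The submitters' processing notes name STAR, edgeR and BDGP6 without versions. How reads were assigned to genes, with which annotation and strand option, is not given in the sources used here. A second table by the authors, normalized and taken as signal, served as an alternative scaling. It lists 6445 genes against 17737 in the counts, so class counts from it can differ through genes left out as well as scaling. Dividing it by 1 constant for each library gave back the whole reads for 100% of values (relative tolerance 0.001). In the tables, 1 column matching no sample was not used.

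Classes, lists and correlations used Python 3.11.15 with scipy 1.17.1, pandas 2.3.3 and numpy 2.4.6. matplotlib 3.10.9 drew the figures. TMM library sizes and dispersions came from edgeR 4.0.16 in R 4.3.3. The code of the class rule was run on counts simulated with counting error alone. That run had no spread from amplification or from the cells drawn, so it says nothing about either. With 1 group, no statistical comparison between groups was made, and spread between pools may be technical, since separate animals are not named.

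Identifiers matched the Ensembl release 115 annotation for 17599 genes. The current symbol differs for 820, such as Trh, listed there as Trhn. Symbols are those of the count table. The members and gene lists were chosen with earlier results of these data known. Named genes were serotonin, cofactor, transmitter and insulin-producing cell genes whatever their values; the 10 most abundant and 10 tightest even genes; the 5 highest uneven genes for each pool; up to 4 even and 4 uneven genes per list; and those beside each limit. Other genes named are intermediate, low or borderline members of the lists, CG14989, CG15537, CG32052, Adar and Hip14, chosen after their values were seen. Alternatives were other scalings, thresholds and limits on spread, and each pool left out.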

Additional observations from a re-analysis of the deposited data

Results flagged for a closer look

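In each group of 4 pools the gap between an extreme pool and its nearest neighbour was divided by the whole range, and values above Dixon's critical value for 4 samples are given here. Chance gives one in about 1 of 20 groups. Among all 2691 genes at 100 CPM or more in a pool, 180 (6.69%) had one, and among the 871 even genes 43 (4.94%). Uneven genes were chosen for a wide spread, so their values add nothing independent. Of the named genes checked, 18 of 131 had one.

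Pool 57 stood apart in total reads (0.876) and in the percentage of mitochondrial reads (0.874). Among the even genes, Trh stood apart by its high pool 45 (0.887), hth (0.9005) and tutl (0.948) by a high pool 40, and zfh1 (0.957) by a high pool 60. Single high pools set apart CG12239 (0.9997), lncRNA:CR44832 (1), Dh31 (0.992) and bib (0.997) in pool 45. In pool 40 they set apart Ilp5 (0.831), Ilp3 (0.930), mtt (0.890) and CG14200 (0.859). In pool 57 they were Dh44 (0.868) and ITP (0.890), and in pool 60 DAT (0.935), CG2016 (0.956), Ire1 (0.845) and Tsp42El (0.890).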

How the results depend on the processing

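The counts of even and uneven genes kept within 1.5 times of 871 and 168 with TMM library sizes (871 and 156, of which 792 and 148 were the same genes), with the deposited normalized values (891 and 163, of which 840 and 157 were the same) and with totals without mitochondrial and the 10 most abundant genes (983 and 228). With 50 and 5 CPM the even genes did too (1210), while 532 genes were uneven. With 200 and 20 CPM 492 were even and 41 uneven. Uneven genes with a mean of at least 100 CPM were 21. Even genes were 380 with a ratio of at most 1.5 and 0 with the square root of edgeR's tagwise dispersion at most 0.25. These tagwise values are drawn towards a common value of 1.22 and had a median of 0.808 over 6935 genes. With a ratio of at most 3 there were 1189 even genes, and with a coefficient of variation of at most 0.25 there were 674. Leaving out a pool gave 1040 to 1120 even genes and 57 to 143 uneven ones: 57 without pool 40, 93 without pool 45, 109 without pool 60 and 143 without pool 57. Fewer pools make the even rule easier and the uneven rule harder to meet. Uneven neuropeptide genes, counted in settings chosen after seeing the data, were 4 to 7 with a pool left out. Uneven genes for transmitters other than serotonin, counted likewise, were 1 to 4 with a pool left out (1 without pool 40, 2 without pool 60), and 2 with 200 and 20 CPM. With log2(CPM + 10), Pearson correlations were 0.846 (pools 40 and 45), 0.876 (40 and 57), 0.857 (40 and 60), 0.906 (45 and 57), 0.876 (45 and 60) and 0.912 (57 and 60), and Spearman's for pools 40 and 45 was 0.730.

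Of the named genes, 15 changed class with TMM. robo2, NPFR and SiaT were then no longer uneven, Cdc7 was, and mt:Cyt-b, GABA-B-R2, Octalpha2R, CG3860, ATPsynC, SdhA and Vha68-1 were no longer even, while Eaat2 and Sms were. Tsp42El and CG7369 were then under 100 CPM in every pool. With TMM, 47 oxidative phosphorylation genes were highest in pool 57, 39 ribosomal protein genes in pool 40 and 9 heat shock genes in pool 60. Depth differed at the low limit, where 10 CPM is 87.2 reads in pool 40 and 155.6 in pool 57, both above the floor of 3 reads. With 4 pools and no repeat of a pool, spread from amplification and from the cells drawn cannot be told apart.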

Other observations

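Activity-regulated genes, which neurons switch on soon after firing, reached 100 CPM in 6 of 7 cases. Of these Hr38, a nuclear receptor gene, was even at 412.4 ± 110.6 CPM (SD, n = 4). Its pools were 389.3 CPM in pool 40, 562.0 in pool 45, 295.4 in pool 57 and 402.8 in pool 60. sr and kay, both transcription factor genes, were intermediate, with ratios of 2.08 and 3.30. CG8910 was uneven, with 8.60 CPM in pool 40, 106.9 in pool 45, 89.1 in pool 57 and 35.1 in pool 60. CG14186 had 186.1 CPM in pool 40, 677.5 in pool 45, 424.5 in pool 57 and 317.6 in pool 60. In 4 of the 6 the highest pool was pool 45, which was highest in 505 of the 2691 genes.

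The labels give no sex of the flies. lncRNA:roX1, a noncoding RNA of male dosage compensation, had 1985 CPM in pool 40, 2318 in pool 45, 2885 in pool 57 and 5837 in pool 60. lncRNA:roX2, its partner, had 0 reads in pool 40, 8.45 CPM in pool 45, 41.5 in pool 57 and 69.9 in pool 60. Both stood in the order pool 40, pool 45, pool 57, pool 60 from low to high. Of the 2691 genes that reached 100 CPM in a pool, 143 (5.31%) had that order. Sxl, the switch gene of sex determination, was even, with 398.1, 381.1, 320.3 and 273.3 CPM in pools 40, 45, 57 and 60. fru, a transcription factor gene of male courtship circuits, had 569.1 CPM in pool 40, 326.7 in pool 45, 365.6 in pool 57 and 82.4 in pool 60.

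Clock genes were mostly low. Pdp1 was even, between 361.7 and 413.3 CPM, while per had 0.115 CPM in pool 40, 0 reads in pool 45, 14.1 CPM in pool 57 and 30.6 in pool 60. Of 14 antimicrobial peptide genes, none reached 100 CPM in a pool and 12 had no read.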
